A study of Oryza sativa with 8 samples.

Results

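Rice roots take up phosphate, move it to the shoot and adjust both to supply through a small set of well-studied proteins. Described here are 10 loci of that set: the phosphate transporter genes PT1 (LOC_Os03g05620), PT2 (LOC_Os03g05640), PT4 (LOC_Os04g10750), PT6 (LOC_Os08g45000) and PT8 (LOC_Os10g30790), the exporter gene PHO1;2 (LOC_Os02g56510), and the regulators PHR2 (LOC_Os07g25710), SPX1 (LOC_Os06g40120), SPX2 (LOC_Os02g10780) and PHO2 (LOC_Os05g48390). They were picked out by locus identifier, with no threshold on their values, and are 10 of the 55986 genes listed in each library. The study compared 4 libraries of intact roots with 4 libraries of digested roots to find genes that change when roots are turned into protoplasts, that is, cells freed of their walls by enzymes. All 8 libraries came from Xkitaake, which is rice of the Kitaake line with XA21 added as a transgene under the maize ubiquitin promoter, and the labels call its genotype WT. According to the labels, the seeds were kept in the dark at 4 °C for 2 to 3 days. The seedlings then grew on gel with Yoshida's nutrient solution for 1 to 3 days at 28 °C. The labels do not state the phosphate content of the gel, and the paper's Methods give a higher temperature for germination. Intact roots were harvested directly and had no treatment. Digested roots held the protoplasts together with pieces of root that the enzymes had not taken apart, and the labels give no digestion time for them. The tissue is labelled as whole root with all its cell types, so each value is a mix over cell types. Of the study's markers of 12 root cell types, 57 without PHO1;2, all had counts in intact roots and 51 had counts in digested roots.

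As background, PT proteins are members of the PHT1 family, which carry phosphate across the plasma membrane together with protons, from the soil into the root and between tissues. PHO1-type proteins release phosphate from stele cells for loading into the xylem. PHR2 is a MYB transcription factor that switches on genes of phosphate starvation, SPX proteins bind PHR2 and hold it back when phosphate is ample, and PHO2 is a ubiquitin-conjugating enzyme that lowers the amount of transporter protein and is itself the target of a microRNA made under starvation.

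QuantSeq, the library type used, makes about 1 tag at the 3′ end of a transcript, and unique molecular identifiers were added. Intact libraries held 2333236 to 3595349 counts on genes and digested libraries 115006 to 471019, so depth differed between the groups throughout. Levels are given as CPM, the counts of a locus relative to its library's total over 13104 genes with enough counts to be tested, scaled by the TMM method. Since tags do not pile up along a transcript, CPM of different genes were compared without dividing by length. On this scale a single count was worth 2.46 to 9.29 CPM in digested libraries and 0.249 to 0.407 CPM in intact ones, and 8 of the 10 loci passed the count filter. Fold changes, their errors and adjusted p-values come from the quasi-likelihood test of edgeR, adjusted over all tested genes by the method of Benjamini and Hochberg, and errors of group means are SD over n = 4 libraries. The labels number the replicates but do not say that they came from separate plants or digestions, so p-values measure the spread between these samples, which may be technical.

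PT8 rose, PT2 and PHO1;2 fell, and the other 5 tested loci did not pass an adjusted p of 0.05. Digested roots thus had 1 of 8 tested loci higher and 2 lower, or 3 changed, where 20.0% of all tested genes were higher and 18.5% lower, 38.5% in all. These shares are near those of the loci, so the number of changed loci did not set them apart from other genes. The groups did not overlap in PT8, PT2 and PHO1;2, against 37.2% of tested genes, 17.4% with digested roots higher and 19.8% with digested roots lower. The median log2 fold change of the 8 loci was -0.19, beside -0.06 over all tested genes. In bulk RNA, fewer cells of a type and less RNA per cell cannot be told apart, which holds for every difference given here. The plot of CPM by library shows all loci except PT6, which had no count.

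**Figure D1:**
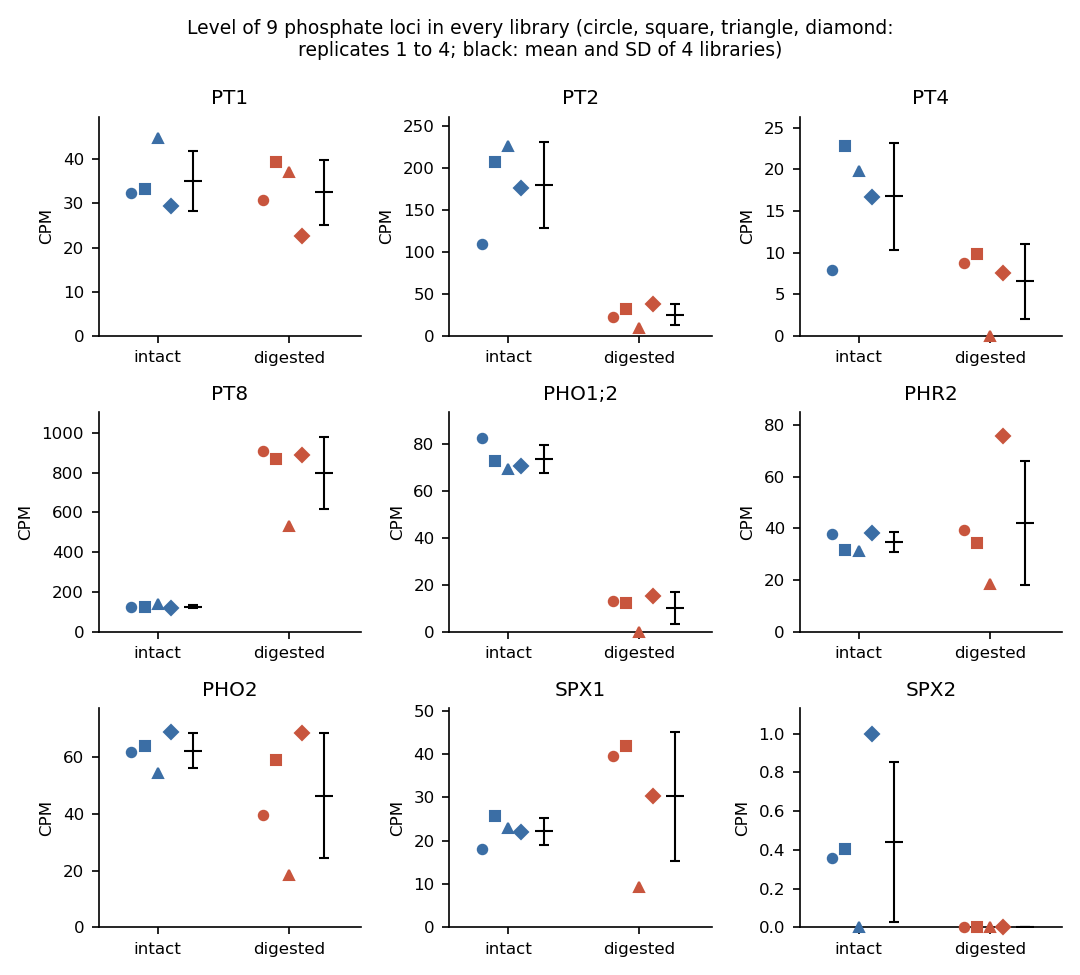
CPM (vertical axis, from 0, a separate scale in each panel) of 9 loci in 4 intact (blue) and 4 digested (red) root libraries; marker shapes stand for replicates 1 to 4, and black bars for the mean and SD of 4 libraries. PT8 lies higher and PT2 and PHO1;2 lie lower in all digested libraries, whereas the groups overlap in the other 6 panels.

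Among the transporters, PT8 showed the only rise. It encodes a high-affinity transporter that is widely expressed in rice and contributes much of phosphate uptake. In intact roots it stood at 125, 122, 139.9 and 118 CPM in replicates 1 to 4, and in digested roots at 907, 868, 529.7 and 886 CPM. Every digested library was thus far above every intact one, and digested replicate 3, the smallest library, lay well under the other digested ones. The means were 126 ± 9.59 CPM and 798 ± 179 CPM, a 6.39-fold rise or a log2 fold change of 2.68 (SE 0.18, 95% interval 2.31 to 3.05, adjusted p = 9.34e-13). The rise rested on 734 counts in digested roots, where 109.7 would fall at the intact level. Among genes with a count in any of the 8 libraries, PT8 stood at percentile 94.1 by mean CPM in intact roots and at percentile 99.2 in digested roots. The set of genes was the same for both groups, so it held genes without a count in 1 of them. Of the tested genes, 856 had a larger log2 fold change. Without digested replicate 3 the log2 fold change was 2.71.

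PT2 moved the other way. It encodes a low-affinity transporter of the root stele, known for moving phosphate from root to shoot. Intact libraries gave 109, 206, 225 and 176 CPM, and digested libraries 21.9, 32.0, 9.29 and 37.9 CPM. The groups did not overlap, intact replicate 1 being the lowest of its group and digested replicate 3 the lowest of all. The means were 179 ± 50.8 CPM and 25.3 ± 12.5 CPM, which is 6.60-fold lower in the fit (log2 fold change -2.72, SE 0.33, 95% interval -3.39 to -2.05, adjusted p = 9.04e-08). Digested libraries held 24 PT2 counts in all, 5, 13, 1 and 5 by replicate, against 156 at the intact level. Of the tested genes, 515 had a lower log2 fold change than PT2.

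PT1, which encodes a transporter of uptake and internal transport expressed also when phosphate is ample, did not pass the test. It gave 32.4, 33.4, 44.8 and 29.4 CPM in intact roots and 30.7, 39.3, 37.2 and 22.7 CPM in digested roots. Digested replicates 1, 2 and 3 lay within the intact range and replicate 4 under it. The log2 fold change was -0.04 (SE 0.31, adjusted p = 0.989), and its 95% interval ran from -0.69 to 0.60. The sign of this value turned without intact replicate 3, to 0.05. The digested value came from 30 counts, where 30.2 would fall at the intact level.

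PT4, a high-affinity transporter gene, was the lowest of the transporter genes with enough counts. Intact libraries gave 7.91, 22.8, 19.7 and 16.7 CPM, and digested libraries 8.77, 9.83, 0 and 7.57 CPM. Intact replicate 1 lay within the digested range and the other 3 intact libraries above it. The means were 16.8 ± 6.41 CPM and 6.54 ± 4.46 CPM, and the log2 fold change of -1.07 (SE 0.59, 95% interval -2.29 to 0.15) did not pass the test (adjusted p = 0.165). Only 7 counts fell on PT4 in digested roots. PT6, a transporter gene known to be induced by phosphate starvation, had 0 counts in all 8 libraries. A count of 0 allows up to 0.249 CPM in intact roots and up to 3.43 CPM in digested roots, each for 3 counts over the group's 4 libraries, and these limits cover counting error only.

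**Figure D2:**
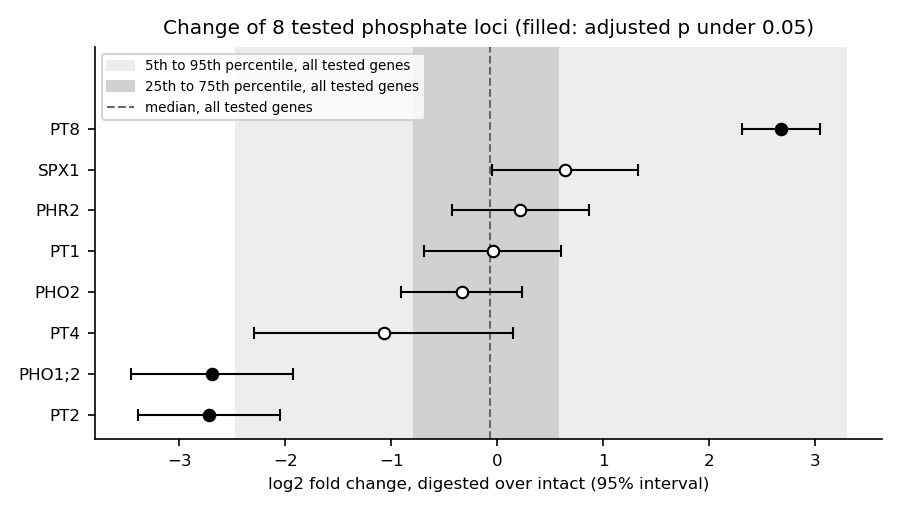
Log2 fold change of digested over intact roots (horizontal axis) with its 95% interval for the 8 tested loci; filled points have an adjusted p under 0.05, the shaded bands span the 25th to 75th and 5th to 95th percentiles of all 13104 tested genes and the dashed line is their median. PT8 at 2.68 lies inside the wider band, which ends at 3.29, whereas PHO1;2 at -2.69 and PT2 at -2.72 lie under its lower end at -2.46.

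The opposite moves of PT8 and PT2 changed which transporter led. In intact roots PT2 had the highest mean CPM of all 10 loci and PT8 the next, but PT2 was the higher in 3 of 4 libraries only, and their ranges overlapped. In digested roots PT8 stood alone at the top, with no overlap with any other locus. For each PT2 count there were 1.14, 0.592, 0.621 and 0.669 PT8 counts in intact replicates 1 to 4 and 41.4, 27.2, 57 and 23.4 in digested replicates 1 to 4. Each digested ratio was above each intact ratio, although the digested ones rested on 1 to 13 PT2 counts.

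Shares of the summed counts of the 5 PT loci do not depend on how libraries were scaled to each other, though they come from the same counts as the fold changes. PT8 made up 45.5%, 31.7%, 32.6% and 34.7% of the PT counts in intact libraries and 93.7%, 91.5%, 91.9% and 92.9% in digested libraries. The widest 95% interval of these shares (Clopper-Pearson, counting error only), 82.2% to 97.3% in digested replicate 3, still lay above every intact share. The mean rose from 36.1% ± 6.37 to 92.5% ± 0.984, by 56.4 percentage points. PT2 fell from 49.4% ± 6.44 to 2.80% ± 1.06, PT1 from 9.89% ± 1.52 to 4.04% ± 1.76 and PT4 from 4.58% ± 1.26 to 0.684% ± 0.466. Each of these 4 shares had no overlap between the groups. Each gave p = 0.0286 in a two-sided exact permutation test of 4 against 4 libraries, the smallest possible. The adjusted p was 0.0357 over 5 shares, these 4 and that of SPX1 in the SPX1 and SPX2 counts. Shares of a whole move against each other, and a lower share of PT1 is not a lower CPM of PT1.

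**Figure D3:**
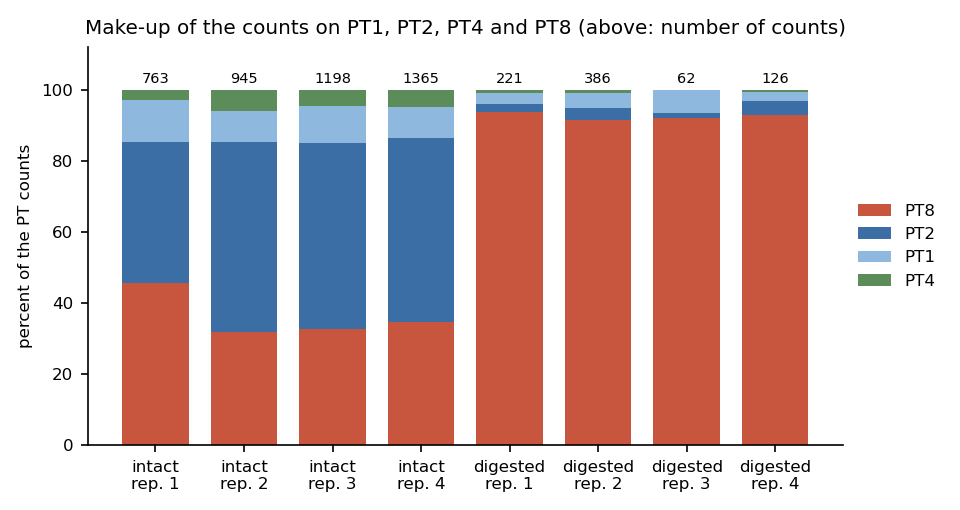
Percent of the summed counts of PT1, PT2, PT4 and PT8 (vertical axis, 0 to 100) that each locus took in each library; the number above a bar is the sum of counts in that library. PT2 and PT8 together fill most of each intact bar, and PT8 alone fills 91.5% to 93.7% of each digested bar.

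Pairs of transporters were compared in the same way after their values had been seen, 6 pairs in all, with p-values adjusted over the pairs. PT1 rose from 16.9% to 57.8% of the counts on PT1 and PT2 (exact permutation p = 0.0286, adjusted p = 0.0429). This share ran from 13.9% to 22.8% in intact libraries and from 37.5% to 80% in digested ones. The digested shares rested on only 30 counts of PT1 and 24 of PT2. In the RefSeq annotation, which uses another assembly than these counts, these genes lie on chromosome 3 with 1 gene between them, so close neighbours differed in their change. PT2 made up 57.8% of the counts on PT2 and PT8 in intact roots and 2.93% in digested roots (adjusted p = 0.0429). PT1 and PT4 each lost share against PT8 with the same adjusted p. For PT1 against PT4 and PT2 against PT4 the exact permutation p-values were 0.114 and 0.257, so a difference in change was not detectable with the 7 digested PT4 counts.

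Summed over the 5 loci, the PT level was 274, 384, 429.8 and 340.3 CPM in intact libraries and 969, 949, 576 and 954 CPM in digested ones. Without PT8 the mean of this sum went from 231 ± 61.0 CPM to 64.3 ± 14.4 CPM. The summed rise therefore came from PT8 alone, and the rest of the family together was lower. A further 8 transporter loci, listed from general knowledge of rice, added only 34 counts in intact and 9 in digested roots to the 4271 and 795 of the PT loci above. With them in the sum the PT8 share rose by 56.1 percentage points.

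Of the outer root cell layers, where phosphate enters, the markers of trichoblasts, epidermis and cortex separated the groups in their summed level (exact permutation p = 0.0286 each), and those of atrichoblasts (p = 0.0571) and exodermis (p = 0.0857) overlapped. Over all tested genes, 18.5% were lower and 20.0% higher, and in 19.8% the digested libraries lay under all intact ones. Of the study's 11 trichoblast markers 8 were tested, of which 7 were lower and 0 higher in digested roots. The level of all 11 summed to 496 to 659 CPM with roots intact and 83.3 to 195 CPM after digestion, and LOC_Os01g11750, LOC_Os03g04210 and LOC_Os06g08500, named here because they were at 0, had no count in digested roots. The 4 atrichoblast markers, of which 1 was higher and 2 were lower, summed to 63.6 to 96.5 CPM and 43.8 to 76.2 CPM, and none was at 0. Of the 6 cortex markers 5 were tested, of which 3 were lower and 0 higher. All 6 summed to 684 to 1031 CPM and 372 to 666 CPM, and none was at 0. The 5 meristem markers summed to 283 to 397 CPM and 270.4 to 427 CPM, with none changed and none at 0. The 1 epidermis marker was lower. The 3 sclerenchyma markers, of which 2 were lower and 0 higher, summed to 48.9 to 75.7 CPM and 8.77 to 22.7 CPM, and none was at 0. The 2 root cap markers, of which 1 was lower and 0 higher, summed to 330 to 500 CPM and 140 to 275 CPM (exact permutation p = 0.0286). Of the 4 exodermis markers 2 were tested, of which 1 was lower and 0 higher. All 4 summed to 30.9 to 37.8 CPM and 21.9 to 34.4 CPM, and LOC_Os06g17260 among them had no count in digested roots. The part of cell type make-up in the changes of PT8 and PT2 was not tested.

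PHO1;2, the exporter gene, fell about as far as PT2. Its protein releases phosphate towards the xylem, and loss of it in rice leaves the shoot short of phosphate. Intact libraries gave 82.4, 72.8, 69.2 and 70.6 CPM, and digested libraries 13.2, 12.3, 0 and 15.1 CPM. The intact libraries lay close together and every digested one lay far under them, with digested replicate 3 at 0. The means were 73.7 ± 5.93 CPM and 10.1 ± 6.87 CPM, 6.45-fold lower in the fit (log2 fold change -2.69, SE 0.37, 95% interval -3.45 to -1.92, adjusted p = 1.05e-06). Digested libraries held 10 counts in all, where 64.2 would fall at the intact level. Without digested replicate 3 the log2 fold change was -2.57.

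PHO1;2 is also on the study's list of vascular tissue markers, and the other tested markers of that list were lower too. Of 4 other vascular markers 3 were tested, and all 3 were lower, where 18.5% of all tested genes were lower. LOC_Os01g58910 had a log2 fold change of -2.41 (adjusted p = 7.30e-07), LOC_Os02g52930 of -2.79 (adjusted p = 1.02e-05) and LOC_Os07g44060 of -1.36 (adjusted p = 0.0128). The fall of PHO1;2 thus lay within the range of the other markers of its list. The 4 other markers summed to 420 to 680.1 CPM in intact and 101 to 280.2 CPM in digested libraries, and none was at 0 over a whole group. The 8 xylem markers of the study, 6 lower and 0 higher, summed to 540 to 787 CPM and 193 to 316 CPM, and none was at 0. The 5 endodermis markers, 1 lower and 0 higher, overlapped at 155 to 274 CPM and 90.9 to 305 CPM (exact permutation p = 0.314). The 4 phloem markers, none of them tested, summed to 7.89 to 11.8 CPM and 0 to 12.3 CPM (exact permutation p = 0.429), and LOC_Os06g45410 and LOC_Os04g41350 had no count in digested roots. Whether the lower PHO1;2 level came with fewer vascular cells or with less PHO1;2 RNA per cell was not tested.

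**Figure D4:**
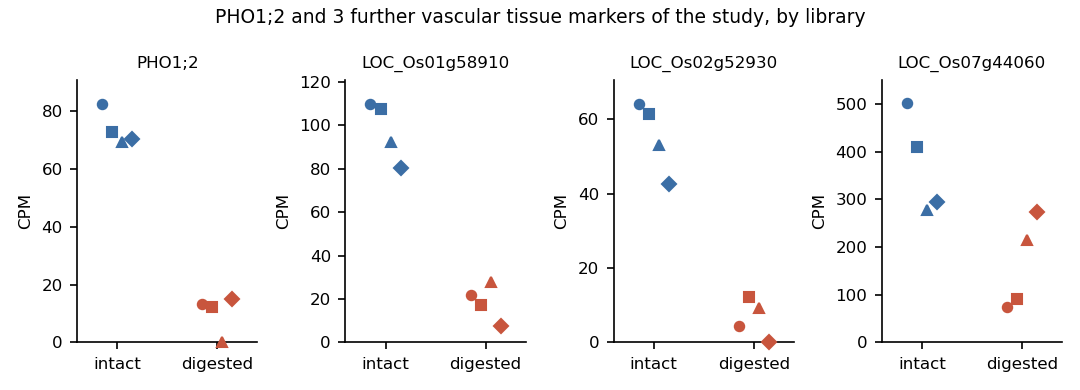
CPM (vertical axis, from 0, a separate scale in each panel) of PHO1;2 and 3 other vascular tissue markers of the study in 4 intact (blue) and 4 digested (red) libraries; circle, square, triangle and diamond stand for replicates 1 to 4. In each panel the digested libraries lie under all intact ones, by least for LOC_Os07g44060, whose digested replicate 4 is at 273 CPM and intact replicate 3 at 277 CPM.

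The regulators of the pathway gave no change past the test. PHR2 stood at 37.8, 31.7, 31.2 and 38.4 CPM in intact libraries and at 39.5, 34.4, 18.6 and 75.7 CPM in digested ones. Digested roots spanned the intact range on both sides, with replicate 4 highest and replicate 3 lowest. The log2 fold change of 0.22 (SE 0.31, 95% interval -0.42 to 0.86, adjusted p = 0.622) turned to -0.15 without digested replicate 4 and to -0.09 with scaling by total counts, so no direction is given for PHR2.

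SPX1, one of the inhibitors of PHR2 and itself a target of PHR2, stood at 18.0, 25.6, 22.96 and 21.9 CPM in intact libraries and at 39.5, 41.8, 9.29 and 30.3 CPM in digested ones. Digested replicates 1, 2 and 4 lay above the highest intact library and replicate 3, with 1 count, lay under the lowest. The log2 fold change was 0.64 (SE 0.34, 95% interval -0.05 to 1.33), and the adjusted p of 0.139 did not pass. It was 0.33 with total counts and 0.25 without digested replicate 2. Without digested replicate 3 it was 0.72, which did not pass either (adjusted p = 0.0900). SPX2, its close relative, had 1, 1, 0 and 4 counts in intact replicates 1 to 4 and 0 in all digested ones. At the intact level 0.436 counts would fall on it in digested roots, so no difference was detectable at this depth (exact permutation p = 0.143 for CPM). Of the SPX1 and SPX2 counts, SPX1 made up 98.0% ± 1.80 in intact and 100% in digested roots.

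PHO2, the gene of the conjugating enzyme, stood at 61.5, 63.9, 54.2 and 68.8 CPM in intact libraries and at 39.5, 59.0, 18.6 and 68.2 CPM in digested ones. Digested replicates 1 and 3 lay under the intact range and replicates 2 and 4 within it. The log2 fold change was -0.33 (SE 0.28, 95% interval -0.90 to 0.23, adjusted p = 0.368), from 44 counts in digested roots. It was -0.65 with total counts, -0.70 without digested replicate 2 and -0.54 without digested replicate 4. Without digested replicate 1 it was -0.32, and without digested replicate 3, the smallest library, -0.27.

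The order of the levels also differed between the groups. By mean CPM, intact roots ran PT2, PT8, PHO1;2, PHO2, PT1, PHR2, SPX1, PT4, SPX2 and PT6, and the ranges of neighbours overlapped for PT2 with PT8, PT1 with PHR2, SPX1 with PT4 and SPX2 with PT6. Digested roots ran PT8, PHO2, PHR2, PT1, SPX1, PT2, PHO1;2 and PT4, with PT6 and SPX2 at 0. There each neighbour after PT8 overlapped the next in range. PT2 was nevertheless above PHO1;2 in 4 of 4 digested libraries, and PHO2, PHR2 and PT1 lay in all digested libraries above the highest PHO1;2 value of 15.1 CPM and the highest PT4 value of 9.83 CPM. Digested replicate 3, the smallest library, held the lowest digested CPM of 7 of the 8 loci with counts in digested roots, PT1 being the exception.

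Another 20 loci of the pathway, listed from general knowledge of rice, were mostly too low to test. Of these, 5 were tested, 2 were higher and 0 lower in digested roots, and 3 did not pass. Over all tested genes 20.0% were higher and 18.5% lower, 38.5% in all, so the number of called loci did not set this list apart. The median log2 fold change of the 5 was 0.20, beside -0.06 for all tested genes. LOC_Os06g03860 gave 88.1, 87.9, 66.7 and 85.5 CPM in intact libraries and 351, 423, 520.4 and 492 CPM in digested ones. No libraries overlapped, and the log2 fold change of 2.42 (SE 0.19, adjusted p = 1.44e-11) was of the size of that of PT8. LOC_Os07g09000 gave 124, 128, 114 and 94.7 CPM in intact and 136, 214, 177 and 235 CPM in digested libraries. Its groups did not overlap either, at a smaller log2 fold change of 0.72 (SE 0.21, adjusted p = 0.00582). With scaling by total counts, or without intact replicate 4, digested replicate 2 or digested replicate 4, 1 of the 20 loci was called in place of 2. The call lost there was that of LOC_Os07g09000, whose log2 fold change was 0.42 with total counts (adjusted p = 0.0950), 0.46 without digested replicate 2 (adjusted p = 0.152), 0.54 without digested replicate 4 (adjusted p = 0.0716) and 0.55 without intact replicate 4 (adjusted p = 0.0612). None of the 8 further transporter loci and none of the 2 further exporter loci passed the count filter. With no filter 1 transporter locus was called as well, LOC_Os06g21920, named here after its values were seen (6 counts in each group, log2 fold change 3.38, adjusted p = 0.00428). Its digested counts fell in replicates 1 and 2 only, at 4.38 and 12.3 CPM, and replicates 3 and 4 were at 0.

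The calls of PT8, PT2 and PHO1;2 were the same under the settings tried. PT8 was higher and PT2 and PHO1;2 lower under all 15 alternatives, among them other scalings and filters, each library left out, and intact counts thinned to the digested totals. PT8 ranged from 2.37 to 2.88 on the log2 scale, PT2 from -3.09 to -2.65 and PHO1;2 from -3.00 to -2.57. The other 5 loci did not pass under any setting that gave them a value, which was 10 of the 15 for PT4, 14 for PT1, PHR2 and SPX1 and 15 for PHO2, and PHR2 and PT1 crossed 0, as the plot of all settings shows.

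**Figure D5:**
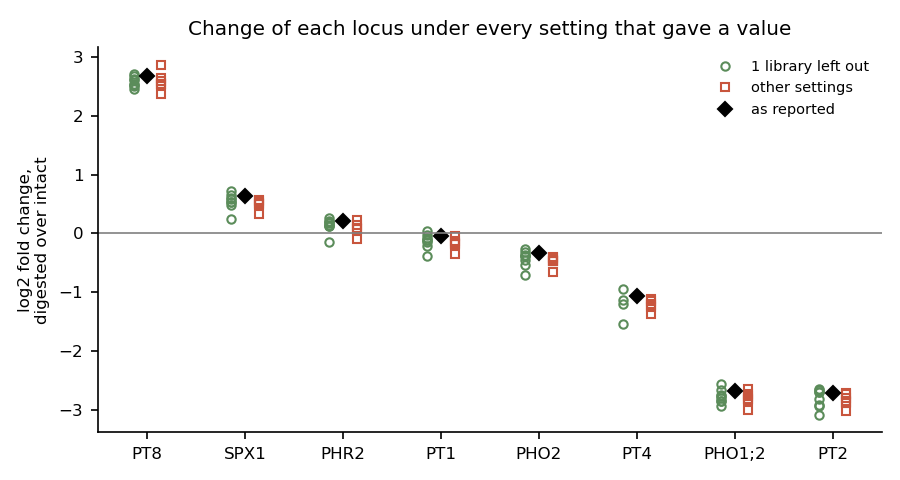
Log2 fold change of digested over intact roots (vertical axis) for the 8 tested loci under every setting that gave a value; black diamonds are the values as reported, green circles leave out 1 library and red squares are other scalings, filters, tests and thinned counts. PT8 stays above 2.37 and PHO1;2 and PT2 reach no higher than -2.57, whereas PHR2 and PT1 have values on both sides of 0.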

How the data were processed

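The data were 3′ tag counts of 4 intact and 4 digested root samples. The authors deposited unnormalized whole counts for each gene, with a file for each library, made by aligning to the Michigan State University rice genome (release 7) and counting with HTSeq. The submitters' processing notes also name STAR, UMI-tools and edgeR, with no versions. The 5 HTSeq summary rows, which name no gene, were left out. They held 13.0% to 14.9% of a library's reads as falling on no gene. Reads with several places in the genome, which were not counted, were 3.93% to 5.36% with roots intact and 13.0% to 24.3% after digestion, so loci with near-identical copies are uncertain.

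Groups came from the sample labels. Counts were fitted with edgeR 4.0.16 under R 4.3.3, on condition only, with the filterByExpr filter, TMM factors, robust glmQLFit, glmQLFTest and a prior count of 0.125, and an adjusted p under 0.05 was the threshold. The SE is the absolute log2 fold change over the square root of F. CPM are counts over the TMM-scaled totals of tested genes. Exact permutation tests were run with scipy 1.17.1. The 10 loci, the further pathway loci and the marker lists were chosen with earlier results of these data known. All 10 loci are named. Of the further loci, annotated ones past the threshold or with a mean of at least 10 CPM were to be named, which none was, and at most 2 unannotated ones that rose and 2 that fell are given by identifier. RefSeq (assembly ASM3414082v1, not the build of the counts) matched 9 of the 10 loci by symbol only and was used for neighbours alone. No replicate pair agreed within sampling noise (chi-square over degrees of freedom at least 1.99). Alternatives were DESeq2 size factors, total counts, 2 other filters, DESeq2 1.42.0, a replicate block, each library left out and thinning.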

Additional observations from a re-analysis of the deposited data

Results flagged for a closer look

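Of 28 groups of 4 libraries examined, 3 had a library far from the other 3 (gap over range above Dixon's 95% critical value), where chance gives about 1.4. PT8 stood at 529.7 CPM in digested replicate 3, with the other digested libraries at 867.7 to 907.4 CPM. The summed CPM of the 5 PT loci was 576.2 in the same library and 948.8 to 968.8 in the others, a sum that PT8 makes up for the most part. The PT2 share of the PT counts was 39.84% in intact replicate 1 and 51.79% to 53.65% in the other intact libraries. With or without these libraries PT8 was higher and PT2 lower in digested roots.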

How the results depend on the processing

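All 15 alternatives gave PT8 higher and PT2 and PHO1;2 lower, though leaving out an intact library left 7 loci tested. The count of changed genes, 5048, was 4180 with a replicate block, 3791 to 5341 with 1 library left out and 2233 with intact counts thinned, where 4599 genes and 4 of the 10 loci could be tested. Of the further pathway loci, 2 were called as reported, 1 with total counts, 3 with no filter and 1 to 2 with a library left out. The log2 fold change of PT1 turned to 0.0476 without intact replicate 3 (range -0.3858 to 0.0476 with a library left out), and that of PHR2 to -0.0939 with total counts and to -0.1489 without digested replicate 4 (range -0.1489 to 0.2605). Scaling moved the median log2 fold change of all genes from -0.06 to -0.20 with DESeq2's size factors (2315 higher, 2910 lower) and to -0.38 with total counts (2048 higher, 3722 lower), against 2618 and 2430 as reported. Same-numbered libraries showed no shared deviation (correlations -0.29, 0.06, -0.11 and -0.06). Counting noise in the small digested libraries can hide one, so these values cannot decide whether the numbers pair the libraries. The replicate block changed no call of the 10 loci (PT8 2.65, PT2 -2.71, PHO1;2 -2.73). PT4 reached an adjusted p of 0.0526 at the lowest of its alternatives and PHO2 of 0.0563. Depth limits the low loci most: PHO1;2, PT4 and SPX2 rested on 10, 7 and 0 digested counts.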
